A study of Mus musculus with 6 samples.

Results

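The genes encoding the proteasome were examined in tumor-associated macrophages (TAMs) of mice with and without the complement receptor C5aR. Members were the protein-coding genes of the expression table whose symbol starts with Psma, Psmb, Psmc, Psmd or Psme, which gave 45 genes of 56980. Of these, 5 are genes of the interferon-inducible immunoproteasome (Psmb8, Psmb9, Psmb10, Psme1 and Psme2). The other 40 are standard subunits, other activators, chaperones, tissue-restricted genes, a near copy of Psme2 and a gene that shares only the name. A further 4 pseudogenes with these prefixes were not taken.

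The proteasome is the protease that degrades ubiquitin-tagged proteins in the cytosol and nucleus. Its 20S core is a stack of outer alpha rings and inner beta rings, and the beta1, beta2 and beta5 positions carry the cutting sites. The 19S cap, made of ATPases (Psmc genes) and non-ATPases (most Psmd genes), binds ubiquitin chains, unfolds the substrate and feeds it into the core. After interferon gamma, cells replace the standard catalytic subunits Psmb6, Psmb7 and Psmb5 with Psmb9, Psmb10 and Psmb8 and make more of the PA28 cap (Psme1 and Psme2), which changes the peptides available for MHC class I molecules. Macrophages carry both forms.

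TAMs came from ID8 tumors, formed by a mouse ovarian cancer cell line injected intraperitoneally into female C57BL/6 mice (WT) or C5aR knockout mice of that background (C5aR-/-), which were purchased at 6 to 8 weeks of age. Tumors were collected after 2 months, and live CD45+CD11b+Ly6G-F4/80+ cells were sorted and their poly(A) RNA sequenced. Each group had 3 libraries, named here WT TAM 1 to 3 and C5aR-/- TAM 1 to 3. All mice carried the same tumor line and received no drug, the knockout is 1 strain that lacks the receptor in every host cell, and the injected tumor cells were not altered. The study describes more mice per group than the 3 libraries analysed here, and how mice and libraries correspond is not given in the sources used here, so p-values measure the spread between these libraries. Values are TPM, transcript abundances corrected for length and scaled so that every library totals 1000000. The scaling removes the sequencing depth, which is therefore unknown for each value.

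C5ar1, the gene of the deleted receptor, stood at 86.5, 37.3 and 16.2 TPM in WT libraries and at no more than 0.38 TPM in any C5aR-/- library. The groups did not overlap (log2 difference -5.04, adjusted p = 0.0666 in limma). Here and throughout, a log2 difference is C5aR-/- minus WT on the log2(TPM + 1) scale, p-values are adjusted over all tested genes unless called unadjusted, and the threshold is 0.05 for either. With 3 libraries against 3, an exact permutation test cannot go below p = 0.1, which C5ar1 reached. For the labelled cell type, 12 macrophage genes were looked at, none of which was at 0 in any library. That cannot identify the cells. Marker lists of epithelial and mesothelial, T and NK, B, dendritic and endothelial cells had no gene at 0 either. The summed TPM of the 12 macrophage genes was 9392, 3803 and 2683 in WT TAMs and 9320, 5339 and 2671 in C5aR-/- TAMs, with Lyz2 the most abundant. The sum was thus highest in library 1 and lowest in library 3 of each group. Markers of epithelial and mesothelial cells, which the gate should remove, were also present in all libraries, with a summed TPM over 8 genes of 2677, 2711 and 3045 in WT and of 3075, 2972 and 2332 in C5aR-/- TAMs and Krt19 the most abundant. In such bulk samples, fewer cells of a type and less RNA per cell cannot be told apart, and the part of other cells in the proteasome values was not tested.

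Upstream sequences of Psmb5, Psmb6, Psmb8 and Psmb9 and of Psmd5, the member with the smallest p, are shown first because the standard and the immunoproteasome genes are known to answer to different regulators. RefSeq windows (GRCm38.p6) of the 250 bases before the start site were found for 38 of the 45 members. Psmb5 lies at chr14:54614119-54618022 on the minus strand (ENSMUSG00000022193) and its window at chr14:54617996-54618245. Psmb6 lies at chr11:70525367-70527858 on the plus strand (ENSMUSG00000018286), with its window at chr11:70525107-70525356. Psmd5 lies at chr2:34849734-34874968 on the minus strand (ENSMUSG00000026869), with its window at chr2:34870963-34871212. The RefSeq starts of Psmb5 and Psmd5, and those of Psmb8 and Psmb9 described next, lie inside the gene models given, whose outermost starts are farther upstream. The windows of Psmd5, Psmb8 and Psmb9 are therefore upstream of the RefSeq start only. That of Psmb5 extends past the outermost start as well, with 27 of its bases in exons of coding transcripts. Each sequence reads 5′ to 3′ toward the gene, and capitals mark the antioxidant response element core TGANNNNGC on either strand, the element that NRF1 and NRF2 bind.
Psmb5: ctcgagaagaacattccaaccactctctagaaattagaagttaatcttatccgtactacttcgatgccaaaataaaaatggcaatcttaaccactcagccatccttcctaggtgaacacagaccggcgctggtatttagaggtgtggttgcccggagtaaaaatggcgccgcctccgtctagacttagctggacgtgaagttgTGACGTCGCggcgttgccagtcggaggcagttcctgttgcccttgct
Psmb6: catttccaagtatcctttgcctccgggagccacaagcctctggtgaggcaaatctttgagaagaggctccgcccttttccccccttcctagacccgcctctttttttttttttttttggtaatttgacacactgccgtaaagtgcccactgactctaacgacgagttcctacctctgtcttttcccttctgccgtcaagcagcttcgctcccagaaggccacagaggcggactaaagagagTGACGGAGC
Psmd5: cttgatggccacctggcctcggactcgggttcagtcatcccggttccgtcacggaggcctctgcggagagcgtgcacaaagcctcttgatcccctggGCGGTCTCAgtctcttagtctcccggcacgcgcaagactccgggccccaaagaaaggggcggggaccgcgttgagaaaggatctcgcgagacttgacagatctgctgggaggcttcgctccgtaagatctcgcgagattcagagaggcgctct
The first base of the element stood at -47 in Psmb5, at -9 in Psmb6 and, on the opposite strand, at -153 in Psmd5, counted back from the start site. The core is short, however, and was found in 9 of the 25 core and cap subunit genes with a window against 35.2% of the 32851 windows of all genes.

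For the immunoproteasome genes Psmb8 (chr17:34197721-34201454, plus strand, ENSMUSG00000024338) and Psmb9 (chr17:34181987-34187764, minus strand, ENSMUSG00000096727), the windows lie in exons of other annotated transcripts, so only 30 bases around each match are given. Capitals mark the interferon gamma-activated site TTCNNNGAA in Psmb8 (chr17:34198087-34198116), and in Psmb9 the antioxidant response element core (chr17:34187372-34187401) and the CCAAT box, read on the opposite strand as ATTGG (chr17:34187331-34187360).
Psmb8: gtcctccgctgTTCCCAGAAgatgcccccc
Psmb9, antioxidant response element core: cccttgcgcgaTGATGGGGCggggcctcag
Psmb9, CCAAT box: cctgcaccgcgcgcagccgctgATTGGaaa
The interferon gamma-activated site was found in 1 of the 5 immunoproteasome windows, in 0 of the 25 core and cap windows and in 7.02% of all windows. The interferon-stimulated response element, searched as GAAA, any pair of bases and GAAA on either strand, was found in 0 of the 5, 2 of the 25 and 2.98% of all windows, and CCAAT in 1 of the 5, 10 of the 25 and 33.8% of all windows. The start sites of Psmb9 and of Tap1, the peptide transporter gene on the opposite strand, are 226 bases apart, so 225 bases of their windows are the same sequence. The gene models also overlap on opposite strands, and although the library protocol marked the strand, whether counting used it is not given in the sources used here, so reads of the overlap may not be told apart. These letters are descriptions of the windows and not measured binding sites.

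Of the 45 members, 43 reached 1 TPM in 3 or more libraries and could be tested together with the other genes, 14776 in all. Their mean TPM ranged from 11.9 to 313, with a median of 110 against 16.5 for all tested genes. Together the proteasome genes took 0.484%, 0.569% and 0.710% of the TPM in WT TAMs and 0.523%, 0.475% and 0.532% in C5aR-/- TAMs. WT TAM 3 was the highest, and the groups overlapped. The immunoproteasome genes summed to 681, 1164 and 2086 TPM in WT and 698, 647 and 1267 TPM in C5aR-/- TAMs. The other members, with a narrower range, summed to 4163, 4531 and 5018 in WT and 4534, 4104 and 4050 in C5aR-/- TAMs.

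**Figure D1:**
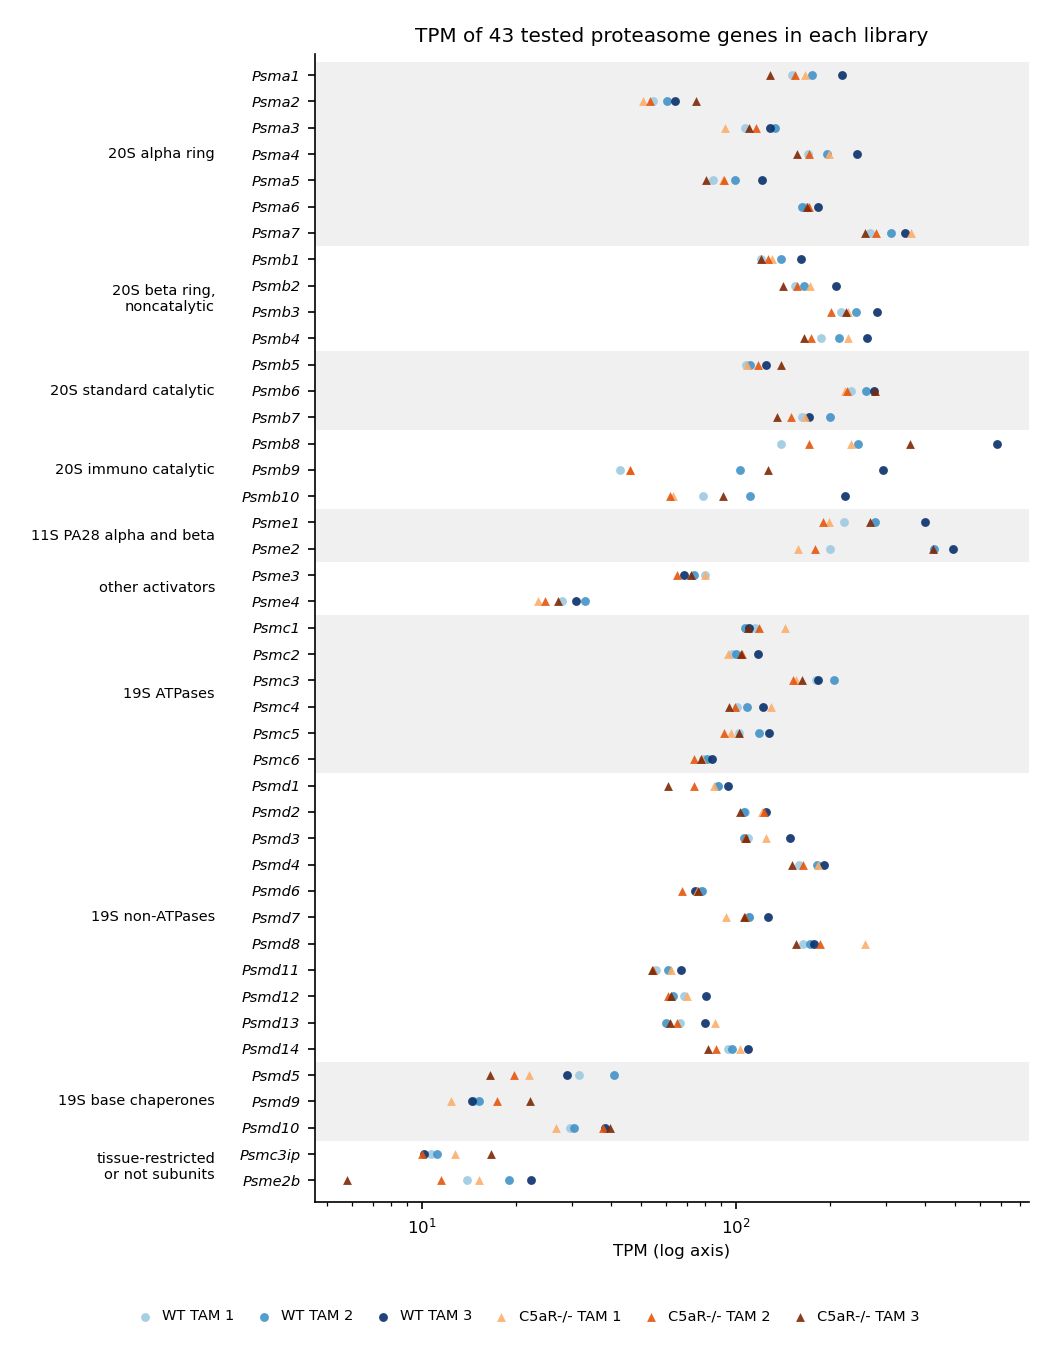
TPM (log axis) of the 43 tested proteasome genes in each library, grouped by role, with circles for WT and triangles for C5aR-/- TAMs. The standard subunits form tight rows, whereas Psmb8, Psmb9, Psmb10 and Psme2 spread widely, with WT TAM 3 at the right end.

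In the alpha ring, which gates the entry to the core, the 7 subunit genes were at mean TPMs from 59.5 (Psma2) to 304 (Psma7). Psma7, the most abundant of the ring, had 268, 313 and 346 TPM in WT and 360, 279 and 258 TPM in C5aR-/- TAMs, so the groups overlapped throughout. Psma1 had 151, 175 and 218 in WT and 166, 154 and 129 in C5aR-/- TAMs. Its log2 difference of -0.26 was the largest of the ring (limma, adjusted p = 0.545). With 1 library left out, this difference ran from -0.39 to -0.12. Psma6 was the flattest member of the complex, with a highest value only 1.12 times its lowest and a TPM of 167, 162 and 182 in WT and 170, 171 and 168 in C5aR-/- TAMs. All 7 log2 differences were negative, from -0.26 to -0.005, where 55.5% of all tested genes were negative. None of the 7 passed the adjusted threshold (0% of all tested genes) or the unadjusted one (14.4% of all tested genes).

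The noncatalytic beta genes Psmb1 to Psmb4, which complete the inner rings, had log2 differences from -0.22 to -0.15. Psmb4 had 186, 213 and 261 TPM in WT and 227, 173 and 164 TPM in C5aR-/- TAMs (log2 difference -0.22, adjusted p = 0.628 from limma). Of the standard catalytic genes, Psmb5, which encodes the chymotrypsin-like subunit and is the target of bortezomib, had 108, 111 and 124 TPM in WT and 109, 117 and 139 TPM in C5aR-/- TAMs. Psmb6, the caspase-like subunit, had 233, 259 and 276 in WT and 223, 226 and 277 in C5aR-/- TAMs. Psmb7, the trypsin-like subunit (chr2:38588036-38644087, minus strand), had 162, 199 and 171 in WT and 166, 150 and 136 in C5aR-/- TAMs. The groups overlapped for each of these genes, with log2 differences of 0.08 (95% interval -0.25 to 0.41), -0.08 (-0.43 to 0.26) and -0.24 (-0.57 to 0.09).

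The catalytic immunoproteasome genes varied widely within WT TAMs and less within C5aR-/- TAMs. Psmb8, the immuno form of beta5, had 139, 245 and 675 TPM in WT and 233, 171 and 358 TPM in C5aR-/- TAMs. Psmb9, the immuno form of beta1, had 42.8, 103 and 295 in WT and 46.1, 45.9 and 126 in C5aR-/- TAMs. Psmb10, the immuno form of beta2 (chr8:105935735-105938444, minus strand, ENSMUSG00000031897), had 78.9, 111 and 223 in WT and 63.1, 61.9 and 90.8 in C5aR-/- TAMs. For each gene the third library of either group was the highest of its group, and WT TAM 3 exceeded every other library. The C5aR-/- group was lower on average, but the groups overlapped in all 3 genes.

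As means, Psmb8 was at 353 ± 284 in WT and 254 ± 95.4 in C5aR-/- TAMs, Psmb9 at 147 ± 132 and 72.8 ± 46.3, and Psmb10 at 138 ± 75.5 and 71.9 ± 16.3 (TPM, SD, n = 3 each). The log2 differences were -0.23 for Psmb8 (standard error 0.58, adjusted p = 0.886), -0.75 for Psmb9 (standard error 0.73, adjusted p = 0.676) and -0.81 for Psmb10 (standard error 0.38, adjusted p = 0.390, limma). None passed the adjusted threshold (0% of all tested genes did) or the unadjusted one (14.4% did). Psmb10 came closest (unadjusted p = 0.0711 from limma). Without WT TAM 3 the difference of Psmb8 was 0.39, opposite in direction, and without C5aR-/- TAM 2 it was 0.02. Without WT TAM 3, Psmb9 was at -0.04 and Psmb10 at -0.40. Without WT TAM 1 the differences were larger, at -0.75 for Psmb8, -1.42 for Psmb9 and -1.14 for Psmb10, and without C5aR-/- TAM 3 they were -0.51, -1.23 and -0.99.

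**Figure D2:**
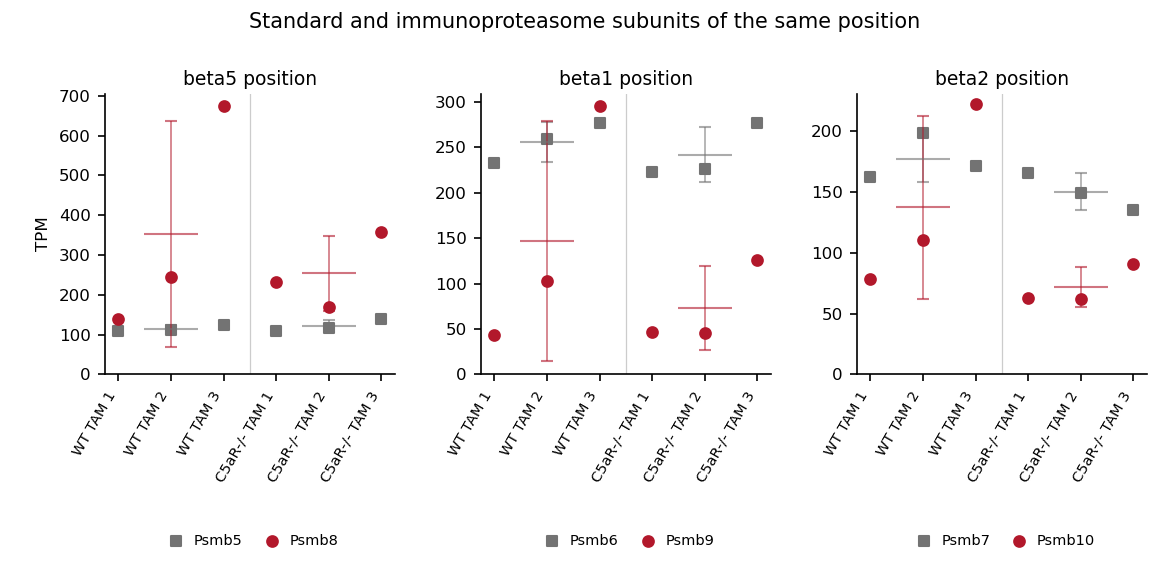
TPM of the standard subunit (grey squares) and the immuno subunit (red circles) of the beta5, beta1 and beta2 positions in each library, with horizontal lines for group means and bars for 1 SD (n = 3). At each position the highest grey square is at most 1.47 times the lowest. Each red circle is highest in WT TAM 3 and, within the C5aR-/- group, in C5aR-/- TAM 3.

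Setting each immuno gene against the standard gene of the same position removes the scaling of the library. The TPM of Psmb8 was 1.29, 2.21 and 5.43 times that of Psmb5 in WT and 2.15, 1.45 and 2.58 times in C5aR-/- TAMs, so the immuno form exceeded the standard form at beta5 in every library. Psmb9 stood at 0.184, 0.397 and 1.07 times Psmb6 in WT and at 0.207, 0.203 and 0.456 times in C5aR-/- TAMs. Psmb10 stood at 0.486, 0.558 and 1.30 times Psmb7 in WT and at 0.381, 0.414 and 0.670 times in C5aR-/- TAMs. Only in WT TAM 3 did the immuno forms exceed the standard forms at all 3 positions. Expressed as a share of the pair, immuno transcripts made up 56.3%, 68.8% and 84.5% at beta5 in WT TAMs and 68.2%, 59.2% and 72.0% in C5aR-/- TAMs.

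Taking C5aR-/- minus WT TAMs, the 3 log2 ratios differed by -0.31 at beta5, -0.68 at beta1 and -0.58 at beta2, with two-sided exact permutation p-values of 0.8, 0.7 and 0.4 (n = 3 per group, adjusted p = 0.8 for all 3 relations). The smallest p this design allows is 0.1. The mean log2 ratio at beta5 was 1.32 ± 1.05 in WT and 1.002 ± 0.42 in C5aR-/- TAMs (SD, n = 3). Without WT TAM 3 the differences were 0.25 at beta5, the opposite direction, -0.015 at beta1 and -0.14 at beta2.

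PA28 alpha and beta, the products of Psme1 (chr14:55578123-55581529, plus strand) and Psme2 (chr14:55587441-55591113, minus strand), form the cap that opens the core independently of ATP. Psme1 had 220, 277 and 401 TPM in WT and 198, 190 and 268 TPM in C5aR-/- TAMs. Psme2 had 200, 428 and 492 in WT and 158, 178 and 424 in C5aR-/- TAMs. WT TAM 3 was again the highest for both, and the groups overlapped. The log2 differences were -0.43 for Psme1 (adjusted p = 0.485) and -0.60 for Psme2 (adjusted p = 0.608, limma). With 1 library left out, that of Psme1 ran from -0.62 without WT TAM 1 to -0.19 without WT TAM 3. That of Psme2 ran from -1.05 without C5aR-/- TAM 3 to -0.34 without C5aR-/- TAM 1. Over the 5 immunoproteasome genes the median log2 difference was -0.60, against -0.05 for all tested genes. This median was -0.19 without WT TAM 3, -0.36 without C5aR-/- TAM 1, -0.99 without C5aR-/- TAM 3 and -1.001 without WT TAM 1. Of the 5 genes, 0 passed the adjusted threshold (0% of all tested genes) and 0 the unadjusted one (14.4% of all tested genes).

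The activators that are not induced by interferon had a narrow range. Psme3, which encodes the nuclear activator PA28 gamma, had 80.0, 73.4 and 68.5 TPM in WT and 79.5, 64.8 and 72.0 TPM in C5aR-/- TAMs. Psme4, which encodes PA200, had 28.1, 33.0 and 31.0 in WT and 23.5, 24.8 and 27.1 in C5aR-/- TAMs, so that its groups did not overlap. Its log2 difference of -0.28 had an adjusted p of 0.410 (limma).

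In the 19S cap, the 6 ATPase genes had log2 differences from -0.28 to 0.15 and the 11 non-ATPase genes from -0.30 to 0.19. Psmc3 (Rpt5) had 180, 206 and 183 TPM in WT and 155, 152 and 162 TPM in C5aR-/- TAMs, without overlap (log2 difference -0.28, unadjusted p = 0.0513, adjusted p = 0.349 from limma). Psmc1 (Rpt2) pointed the other way, with 115, 107 and 110 in WT and 143, 118 and 110 in C5aR-/- TAMs. Psmd1 (Rpn2), a scaffold of the base, had 87.7, 87.8 and 94.5 in WT and 85.4, 73.7 and 60.9 in C5aR-/- TAMs, again without overlap. Its log2 difference was -0.30 (adjusted p = 0.416 from limma), and from -0.42 to -0.18 with 1 library left out. Psmd8 (Rpn12) had 163, 172 and 177 in WT and 257, 186 and 156 in C5aR-/- TAMs, with C5aR-/- TAM 1 the highest and C5aR-/- TAM 3 the lowest of the 6.

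The 19S base chaperones are not part of the finished proteasome but help assemble its ATPase ring. Psmd5 (S5b) had 31.6, 40.9 and 29.1 TPM in WT and 22.0, 19.8 and 16.5 TPM in C5aR-/- TAMs. Every C5aR-/- library was below every WT library, with means of 33.8 ± 6.22 and 19.4 ± 2.81 (SD, n = 3). The log2 difference was -0.77 (standard error 0.19, 95% interval -1.21 to -0.32, unadjusted p = 0.00517, adjusted p = 0.169 from limma), so Psmd5 did not pass after adjustment over all genes. Leaving out each library in turn gave differences from -0.86 to -0.63. The gene model of Psmd5 overlaps Cutal on the opposite strand, which had a TPM of at most 0.15. Psmd9 (p27) had 14.7, 15.3 and 14.5 in WT and 12.4, 17.4 and 22.2 in C5aR-/- TAMs, and the log2 difference of Psmd10 (gankyrin) was 0.07.

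The remaining members are tissue-restricted, share only the name or, as Psme2b, are a near copy of another member. Psma8, the alpha subunit of the testis proteasome, had a TPM from 0.04 to 1.02, and Psmb11, the beta5 subunit of thymic epithelium, was at 0.03, 0.18 and 0.23 in WT and 0.02, 0 and 0 in C5aR-/- TAMs, so neither was tested. Psmc3ip (HOP2), a cofactor of meiotic recombination, had 10.8, 11.2 and 10.2 in WT and 12.7, 10.03 and 16.7 in C5aR-/- TAMs. Psme2b (chr11:48945354-48946190, minus strand) had 13.9, 19.03 and 22.3 in WT and 15.2, 11.5 and 5.81 in C5aR-/- TAMs (log2 difference -0.78, adjusted p = 0.375 from limma, and -0.42 without C5aR-/- TAM 3). Its transcript is a near copy of that of Psme2, with 789 of 794 aligned bases identical (99.4%), so reads could be split between them and the values of both are uncertain. It also overlaps Gm12185 and 9930111J21Rik1 on the same strand. The standard and immuno transcripts of a position were less alike, with 70.9% to 73.7% of aligned bases identical.

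Across the tested members, 0 of 43 passed the adjusted threshold in limma, where 0 of 14776 genes (0%) did, and C5ar1 itself did not. At the unadjusted threshold 1 of 43 members passed (Psmd5, 2.33%), against 14.4% of all tested genes, with 0 members higher in C5aR-/- TAMs (background 6.06%) and 1 lower (background 8.37%). The groups did not overlap for 7 members (16.3%), namely Psme4, Psmc3, Psmc5, Psmc6, Psmd1, Psmd7 and Psmd5, against 21.3% of all genes. All 7 were lower in C5aR-/- TAMs (background 12.5%) and 0 were higher (background 8.84%). Some of these gaps were narrow, as for Psmc6, with 78.7, 80.9 and 84.1 in WT and 78.3, 73.6 and 77.3 in C5aR-/- TAMs. For Psmc5 the lowest WT value was 102.46 and the highest C5aR-/- value 102.19. Psmd7 had 110.15, 110.17 and 127 in WT and 93.1, 107 and 106 in C5aR-/- TAMs. Of these shares, only that of separate groups in the lower direction, 16.3%, was above its background.

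The log2 difference was negative for 35 of the 43 tested members, against 55.5% of all tested genes. The median over the 38 standard and other members was -0.10 and over the 31 subunits of the core and cap -0.10, with 26 of the 31 negative. Leaving out single libraries moved the first median between -0.17 (without C5aR-/- TAM 1) and -0.04 (without WT TAM 3). With quantile normalization 32 of 43 were negative against 50.4% of all genes, and with median-of-ratios scaling 30 against 50.3%. Without WT TAM 3 there were 28, against 52.7% of all genes.

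**Figure D3:**
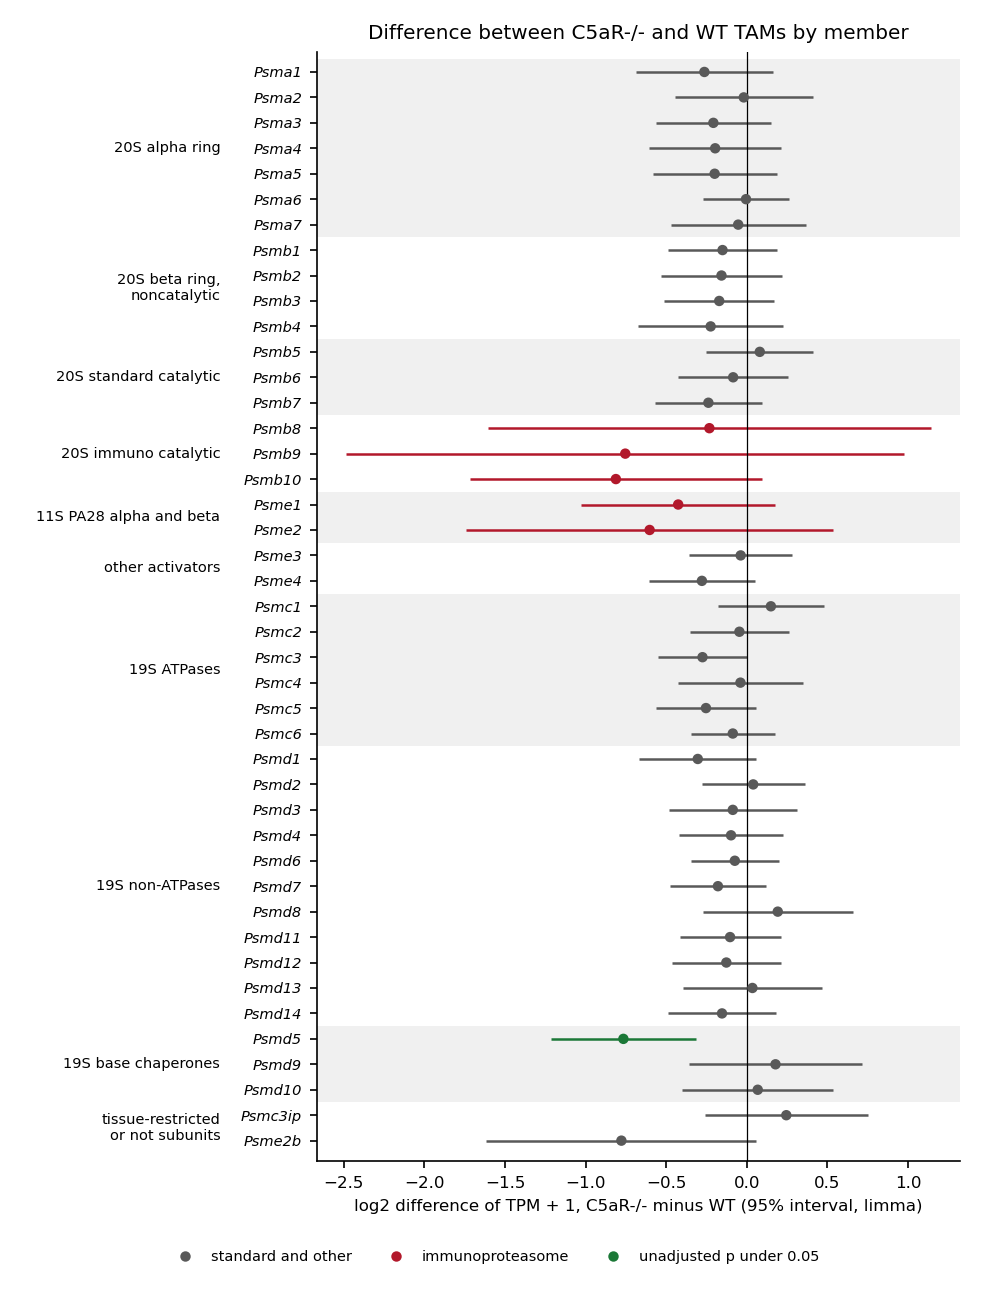
Log2 difference of TPM + 1 between C5aR-/- and WT TAMs (x axis) for each tested member, with 95% intervals from limma. Points lie mostly left of 0, intervals are short for the standard subunits and long for the immunoproteasome genes (red), and Psmd5 (green) alone has an unadjusted p under 0.05.

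The standard and the immunoproteasome genes also differed in their spread over the 6 libraries, as shown in the plot of spread against level. Among the 3049 tested genes with a mean TPM of at least 50, the highest value was 1.61 times the lowest at the median, with quartiles of 1.38 and 2.18. Of the 32 standard and other members at that level, 30 lay below this median and 17 below the lower quartile. Of the 5 immunoproteasome genes, 0 lay below the median and 4 lay above the upper quartile. Their ratios ran from 2.11 for Psme1 to 6.89 for Psmb9, with 3.12 for Psme2, 3.60 for Psmb10 and 4.86 for Psmb8 between them. These ratios rested in part on WT TAM 3, without which they were 1.46 for Psme1, 1.79 for Psmb10, 2.57 for Psmb8, 2.71 for Psme2 and 2.95 for Psmb9. Without it 3 of the 5 lay above the upper quartile and 1 below the median, and 31 of the 32 other members lay below the median. Members under 50 TPM on average are outside this comparison, among them Psmd5 and Psme2b, with ratios of 2.48 and 3.84. Spread here includes differences within and between groups and is given as a description.

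**Figure D4:**
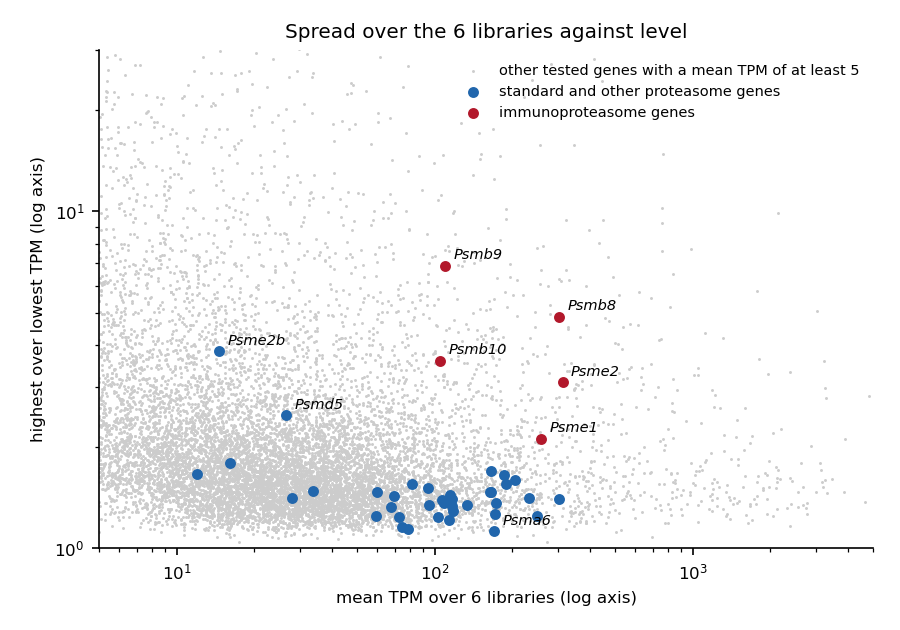
Highest over lowest TPM of each tested gene across the 6 libraries (y axis, log) against its mean TPM (x axis, log), for genes with a mean TPM of at least 5. Most standard and other proteasome genes (blue) lie in the lower part of the cloud, with Psma6 the lowest at 1.12. The highest blue points are Psmd5 at 2.48 and Psme2b at 3.84, and the immunoproteasome genes (red) run up to 6.89 for Psmb9.

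WT TAM 3 held the highest value for 25 of the 43 tested members (58.1%), against 22.8% of all tested genes, and for all 5 immunoproteasome genes. The lowest value lay most often in C5aR-/- TAM 3, for 17 of 43 members (39.5%, against 27.5% of all tested genes), and 0 members had their lowest value in WT TAM 3 (9.74% of all tested genes). The summed TPM of the 12 macrophage genes was lowest in TAM 3 of each group, at 2683 in WT and 2671 in C5aR-/- TAMs, and TAM 3 also had the highest immunoproteasome values of each group. The 10 T and NK cell genes summed to 33.5, 76.5 and 125 in WT and 82.9, 62.2 and 25.1 in C5aR-/- TAMs, highest in WT TAM 3 and lowest in C5aR-/- TAM 3. Trbc2 was the most abundant of these, and none was at 0 in any library. Whether the makeup of the sorted cells took part in these differences was not tested.

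Sums of the other marker lists were as follows. The 7 neutrophil genes, led by S100a9, summed to 944, 2310 and 628 in WT and 213, 389 and 31.0 in C5aR-/- TAMs, with 1 gene at 0 in C5aR-/- TAM 1 and 1 in C5aR-/- TAM 3. The 5 B cell genes summed to between 9.16 and 168, the 7 dendritic cell genes to between 31.8 and 93.1, and the 5 endothelial genes to between 11.9 and 28.8. Neutrophils carry Ly6G, and the sort took Ly6G-negative cells. Of the 6 neutrophil genes tested, 5 were lower in C5aR-/- TAMs at the unadjusted threshold (background 8.37%). The 7 mast cell genes, led by Kit, summed to 106, 85.8 and 141 in WT and 61.6, 75.1 and 90.5 in C5aR-/- TAMs, and 5 of them were lower at the unadjusted threshold (background 8.37%), each without overlap (background 12.5%). Mcpt4 had 12.4, 12.02 and 22.4 TPM in WT against at most 0.25 TPM in C5aR-/- TAMs, and Cpa3 had 18.97, 11.85 and 26.7 against at most 1.59 TPM. Kit was higher instead, with 28.9, 33.1 and 29.8 in WT and 54.6, 68.0 and 85.4 in C5aR-/- TAMs. Whether these cells had a part in the difference of Psmd5 was not tested. The 6 fibroblast genes, led by Dcn, summed to 404, 467 and 605 in WT and 557, 439 and 473 in C5aR-/- TAMs, with WT TAM 3 the highest. The 8 genes of cycling cells summed to 573, 593 and 561 in WT and 591, 695 and 852 in C5aR-/- TAMs, highest in C5aR-/- TAM 3. Of these 8, Mcm2 (log2 difference 0.53) and Mcm5 (0.45), helicase subunits of DNA replication, were higher at the unadjusted threshold (background 6.06%). Of the 8 epithelial and mesothelial genes, Msln (0.88) and Krt8 (0.62) were higher and Upk3b (-1.48) was lower at that threshold. Of the other lists, 1 of 12 macrophage genes, Fcgr1 (0.82), was higher and 1 of 5 fibroblast genes tested, Col1a2 (-1.87), was lower. These genes were named after their values were seen, and none passed the adjusted threshold.

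Irf1 and Nlrc5, known regulators of antigen presentation genes, had the same order of libraries in WT TAMs as the immunoproteasome genes. So did standard members such as Psma1 and Psma7. Irf1, a transcription factor induced by interferon, had 106, 126 and 212 in WT and 132, 81.3 and 119 in C5aR-/- TAMs. Nlrc5, the transactivator of MHC class I genes, had 22.4, 39.6 and 115 in WT and 37.1, 28.8 and 65.3 in C5aR-/- TAMs. Both were highest in WT TAM 3, and their groups overlapped. Within the C5aR-/- group, Nlrc5 was highest in C5aR-/- TAM 3, like the immunoproteasome genes, but Irf1 was highest in C5aR-/- TAM 1. WT TAM 3 was the highest library for 7 of the 14 interferon pathway genes (50%, against 22.8% of all tested genes). Of the 14 interferon pathway genes tested, 0 passed the unadjusted threshold against 14.4% of all tested genes, and the smallest p was that of Jak2 (log2 difference -0.24, adjusted p = 0.491 from limma).

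**Figure D5:**
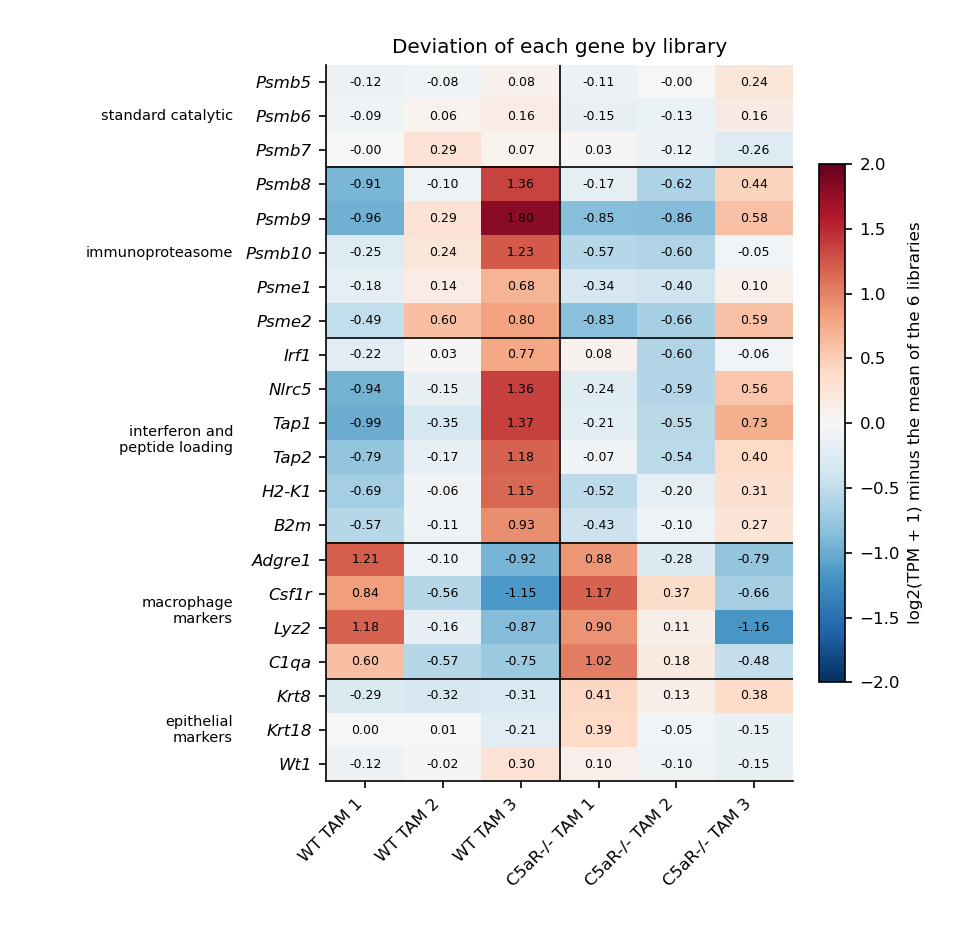
Log2(TPM + 1) of selected genes in each library minus the mean of the 6 libraries, in color and as numbers, for standard catalytic, immunoproteasome, interferon and peptide loading genes and for macrophage and epithelial markers. WT TAM 3 is at 1.36 for Psmb8, 1.80 for Psmb9 and 1.36 for Nlrc5 and at -0.92 for Adgre1 (F4/80), while Psmb5, Psmb6 and Psmb7 stay between -0.26 and 0.29.

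The proteins that carry and trim peptides behind the proteasome were measured as a list of 11 tested genes, of which 2 passed the unadjusted threshold against 14.4% of all tested genes, both lower in C5aR-/- TAMs (background 8.37%), and 0 passed after adjustment. Tap1 had 41.7, 65.5 and 219 TPM in WT and 72.5, 56.9 and 139 TPM in C5aR-/- TAMs, with a log2 difference of -0.02 and a standard error of 0.63 (adjusted p = 0.991 from limma). Leaving out single libraries moved it from -0.52 to 0.66, the latter without WT TAM 3. Pdia3, the disulfide isomerase of the peptide-loading complex, had 448, 414 and 403 in WT and 314, 324 and 273 in C5aR-/- TAMs, without overlap (log2 difference -0.47, unadjusted p = 0.00859, adjusted p = 0.200 from limma). The other was Erap1, the peptidase that trims peptides in the endoplasmic reticulum, named after its values were seen (log2 difference -0.49).

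Regulators of the standard proteasome genes were a list of 7 tested genes, 2 of them lower at the unadjusted threshold, where the background was 8.37%. Nfe2l2 (NRF2), the transcription factor of the antioxidant response, had 190, 197 and 197 TPM in WT and 172, 121 and 86.5 TPM in C5aR-/- TAMs. All C5aR-/- libraries were below all WT libraries (log2 difference -0.67, unadjusted p = 0.0297, adjusted p = 0.296 from limma). This difference was -0.92 without C5aR-/- TAM 1 and -0.43 without C5aR-/- TAM 3, the ends of its range with 1 library left out. Nfe2l1 (NRF1), which restores proteasome gene expression when the proteasome is inhibited, had 133, 137 and 157 in WT and 132, 147 and 158 in C5aR-/- TAMs, with overlapping groups. The other of the 2 was Nfya, a subunit of the CCAAT-binding factor, also named after its values were seen (log2 difference -0.33).

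Assembly and ubiquitin delivery showed no gene past the unadjusted threshold, which 14.4% of all tested genes passed. Of 5 assembly chaperone genes of the core, Pomp, which matures the beta rings, had 246, 276 and 355 TPM in WT and 146, 247 and 275 TPM in C5aR-/- TAMs (log2 difference -0.43, adjusted p = 0.519 from limma, and -0.15 without C5aR-/- TAM 1). Of 8 proteasome-bound factors, Uchl5, a deubiquitinase of the cap, had 23.0, 20.9 and 19.4 in WT and 24.2, 25.9 and 28.6 in C5aR-/- TAMs, the reverse direction without overlap (log2 difference 0.30, adjusted p = 0.396 from limma). Of 15 ubiquitin and shuttle genes tested, 0 passed the unadjusted threshold.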

How the data were processed

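RNA of sorted TAMs was measured in 6 libraries, 3 per group, assigned by the sample titles. The authors used fastp for trimming, HISAT2 for alignment and StringTie for transcript assembly, and deposited TPM per Ensembl gene. The submitters' processing notes also name RSEM, DESeq2 and the build mm10, without versions, and the library protocol marked the strand with dUTP, but whether counting used it is not given in the sources used here. The deposited columns of group means equal the means of the libraries and were not used. DESeq2 and edgeR need counts and were not run. Where a gene overlaps another on the opposite strand (10 members), reads may not be told apart.

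Members were found by symbol in GENCODE M21 (GRCm38, the build mm10), in which 52125 of 56980 gene IDs had a symbol. The 14776 genes that reached 1 TPM in 3 or more libraries were tested on log2(TPM + 1) with limma (3.58.1, R 4.3.3), a scale that understates the change of low genes, using eBayes with trend and Benjamini-Hochberg adjustment over all tested genes at a threshold of 0.05. The 28003 genes listed at 0 throughout were not tested. Ratios were compared with an exact permutation test (scipy 1.17.1). Tables used Python 3.11.15 and pandas 2.3.3. Intervals are 95% intervals of limma. Transcripts were aligned with Biopython 1.88, and promoter windows came from RefSeq.

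This comparison was also run on simulated data over 14776 genes. It called 179 of 200 genes changed by a log2 difference of 2, with 9 others, and 0 of 200 changed by 1. With 0 genes changed, 4.93% had an unadjusted p under 0.05 in the simulation, against 14.4% of all tested genes in the measured data (limma). In the measured data 0 of 14776 genes passed the adjusted threshold, and C5ar1, at -5.04, had an adjusted p of 0.0666 (limma). Whether the simulated rates hold for the measured libraries was not tested.

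The members, the lists and the tests were chosen with earlier results of these data known. Named genes are C5ar1, the catalytic and activator genes, the genes with the largest difference each way in each proteasome list, the 6 members with the smallest p, the most and least abundant, the members not tested or not subunits, and of each pathway list the gene with the smallest p together with Nfe2l1, Nfe2l2, Pomp, Irf1, Nlrc5 and Tap1. Some genes that this rule names are not reported here. Other genes were named after their values were seen. Alternatives changed the pseudocount to 0.1, dropped the filter or raised it to 5 TPM, normalized by quantiles or by median of ratios, blocked on replicate number, weighted the libraries (array weights), ran eBayes with no trend, or left out each library in turn. The median over the subunits of the core and cap alone and the spread with single libraries left out were added after seeing the data.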

Additional observations from a re-analysis of the deposited data

How the results depend on the processing

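No member passed the adjusted threshold under any alternative except array weights, with 19 members and 7278 of all genes. That fit rests on C5aR-/- TAM 2, which it weighted 38.6 against 0.17 to 2.92 for the other libraries. All genes past the adjusted threshold numbered 2 with eBayes without trend and 0 to 399 when libraries were left out, the highest without C5aR-/- TAM 1, with 1 without C5aR-/- TAM 2 and 3 without C5aR-/- TAM 3. At the unadjusted threshold there were 8400 genes with array weights and 1111 (without WT TAM 2) to 3231 (without C5aR-/- TAM 1) when libraries were left out. Psmd5 passed the unadjusted threshold under every alternative run. The count of members there was 3 with no filter, adding Psmb11 and Psmc3, 25 with array weights, and 1 to 3 when libraries were left out. It was 3 without WT TAM 1 (with Psmb10 and Psme1), 3 without C5aR-/- TAM 1 (with Psmd1 and Psme2b) and 2 without C5aR-/- TAM 3 (with Psme2).

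The immunoproteasome median ranged from -1.001 (without WT TAM 1) to -0.19 (without WT TAM 3) when libraries were left out. With array weights it was -0.88. The standard median ranged from -0.17 to -0.04 when libraries were left out. With median-of-ratios scaling the standard median was -0.051 and with quantile normalization -0.066. The C5aR-/- minus WT difference of the log2 ratio of Psmb8 to Psmb5 was 0.25 without WT TAM 3. With libraries left out this difference ranged from -0.79 to 0.25. That of Psmb9 to Psmb6 ranged from -1.28 to -0.015 and that of Psmb10 to Psmb7 from -0.85 to -0.14. The cause was not tested. Of 32 named genes, 23 kept their direction under every alternative. With libraries left out in turn, differences ranged from -0.019 to 0.16 for Psmb5, -0.75 to 0.39 for Psmb8, -0.11 to 0.035 for Psme3, -0.0065 to 0.35 for Psmd8, -0.010 to 0.39 for Psmd9, -0.029 to 0.11 for Nfe2l1, -0.70 to 0.45 for Nlrc5 and -0.52 to 0.66 for Tap1. Psme3 was at 0.012 and Tap1 at 0.030 with median-of-ratios scaling, Tap1 at 0.0094 with quantile normalization and Psmc3ip at -0.12 with array weights. The median of all genes moved from -0.05 to -0.003 with median-of-ratios scaling and to -0.004 with quantile normalization. A shift of that size turns the sign of differences as small as those of the main fit for Psme3 (-0.038) and Tap1 (-0.021). Their changes of sign under these scalings are therefore not a result about either gene.

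The deviations of same-numbered libraries correlated across genes at 0.19 and 0.27 for numbers 1 and 3 and at -0.01 for number 2. Not every pair deviated together, and the numbers were not taken as pairs. Deviations from a group mean sum to 0 within the group, so these values are not independent and cannot settle whether libraries were paired. WT TAM 1 and WT TAM 3 correlated best with their own number, a hint from the data and not from the design. With the replicate number as a block, 3 members (Psmb10, Psmd5 and Psme1) and 2222 genes passed the unadjusted threshold and 0 members the adjusted one. TPM keeps no depth, so counting error is unknown.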
